A study of Homo sapiens with 11 samples.

Results

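S100 genes encode small calcium-binding proteins, and 10 of them (S100A2, S100A3, S100A4, S100A6, S100A10, S100A11, S100A13, S100A14, S100A16 and S100P) were described here across 5 sublines of the established cell line ARPE-19, which comes from human retinal pigment epithelium (RPE). The genes were taken by symbol from a table of 60605 features, and all 10 were present as 1 row each. Polyadenylated RNA had been sequenced from stable lines on day 4 of expression of an open reading frame (ORF): GFP, a fluorescent protein used as the control (3 libraries), Oct4 (2), Sox2 (2), Klf4 (2), or Oct4, Sox2 and Klf4 together (OSK, 2). The library names of the 4 factor lines all carry the element mC, which those of the GFP line lack and whose meaning the labels do not give, so it cannot be told apart from the factors. The question was how these S100 genes differed between lines that express a pluripotency factor and the GFP line. The labels give no promoter, no species for the ORFs and no statement that replicates were separate cultures, so a p-value measures the spread between these libraries, which may be technical.

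S100 proteins are dimers built from helix-loop-helix calcium sites called EF hands. On binding calcium, most expose a surface that docks to other proteins, such as annexins, cytoskeletal motors and p53, and some are exported and bind cell surface receptors such as RAGE (gene AGER) and TLR4. S100A10 is an exception whose EF hands no longer bind calcium, and it pairs constitutively with annexin A2. Most of the human genes lie together on chromosome 1, beside the fused-type genes of the epidermal differentiation complex such as FLG (filaggrin).

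In GENCODE release 29 (GRCh38), 9 of the 10 genes lie on the minus strand of chromosome 1 within 1648 kb. S100A10 (chr1:151982915-151994390) and S100A11 (chr1:152032506-152047907) stand apart from the other 7. S100A6 (chr1:153534599-153536244), S100A4 (chr1:153543613-153550136), S100A3 (chr1:153547329-153549372) and S100A2 (chr1:153561108-153567890) lie within 33.3 kb. S100A3 sits inside the span of S100A4 without sharing exon bases with it. S100A16 (chr1:153606886-153613145), S100A14 (chr1:153614255-153616986) and S100A13 (chr1:153618787-153631360) lie within 24.5 kb. S100P is on the plus strand of chromosome 4 (chr4:6693069-6697170).

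The 250 bases upstream of each RefSeq start (GRCh38.p14, 14 starts for the 10 genes) were searched on both strands for letters of factor sites, since 3 of the lines carry a factor with known DNA letters. GGGNGTG, a loose pattern that includes letters bound by Klf factors and allows any base at N, occurred upstream of 5 of the 14 starts. It occurred at 27.1% of 35116 human starts. Those 5 were a start each of S100A10, S100A11, S100A13, S100A16 and S100P, while another S100A16 start and the other 2 S100A13 starts held none. ATGCAAAT (the octamer bound by Oct4) occurred at none of the 14 and at 1.63% of all starts, and CATTGT (bound by Sox factors) at none of the 14 and at 9.29% of all. TGANTCA (AP-1) occurred at 2 of the 14 and 6.57% of all, and TATAAA (the TATA box) at 3 of the 14 and 10.7% of all. No overlap between these letters was counted as a joint site. An S100A16 window is shown whole because it held 3 GGGNGTG matches, the most of the 14. Of all starts 1.51% hold 3 or more. This window was picked as the highest of 14, so that share is not a test of it. The other 4 stretches show 30 bases around a match as examples, and the S100A13 and S100P matches are not printed. The printed GGGNGTG matches are thus those of genes called higher in the Klf4 line. S100A13, which also held a match, did not change there (log2 change 0.00 ± 0.28, SE), and S100P was too low to test. Whether the letters go with the Klf4 changes was not tested. Sequences run 5′ to 3′ on the gene's strand and capitals mark the match, which reads CACTCCC where it lies on the opposite strand.
S100A16, minus strand, chr1:153613138-153613387, 3 GGGNGTG matches: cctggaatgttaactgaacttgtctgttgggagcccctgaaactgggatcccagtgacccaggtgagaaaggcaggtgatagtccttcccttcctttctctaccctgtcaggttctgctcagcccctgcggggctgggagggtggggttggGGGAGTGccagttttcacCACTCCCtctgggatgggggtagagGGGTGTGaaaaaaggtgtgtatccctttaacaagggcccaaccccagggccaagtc
S100A11, minus strand, chr1:152037005-152037034, GGGNGTG: ggcaaggctgggccgggaaGGGCGTGggtt
S100A10, minus strand, chr1:151993966-151993995, GGGNGTG: ggagcgagggcaGGGCGTGggccgcgcgcc
S100A4, minus strand, chr1:153545820-153545849, TATAAA: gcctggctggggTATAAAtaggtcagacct
S100A2, minus strand, chr1:153565879-153565908, TGANTCA: aggagtgggctgTGACTCAcaggcatgtca
The 3 S100A16 matches end between 92 and 49 bases before its start, the S100A11 match 4 bases before, and the S100A10 match 117 bases before. The S100A10, S100A11, S100A4 and S100A2 stretches lie inside the GENCODE spans given above, so the windows can hold transcribed bases. GENCODE exons of the same gene covered all 250 bases of the S100A10 window. They covered 79 bases for S100A4, 31 for S100A11, 21 for S100A2 and 8 for S100A16. The S100A6 and S100P windows, and a further window each of S100A2 and S100A13, also lay wholly in exons. These matches are letters in a window, and binding was not measured.

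Reads assigned to features, as recovered from the deposited values, numbered 15053300 to 19791775 per library. GFP replicate 1 and OSK replicate 1 stood apart, with 42956 and 32493 features detected against 25853 to 26971 in the other 9 libraries. Calls of the 8 tested S100 genes that rest on them are therefore given with and without them. Results of the other gene lists and markers are given with all libraries only. The introduced factors were seen in their lines. POU5F1 (Oct4) was at 66823 and 67326 normalised counts in the Oct4 line, SOX2 at 29106 and 29141 in the Sox2 line, and KLF4 at 22142 and 24205 in the Klf4 line, whereas the 3 genes were at 43.7 to 276.1 in the GFP libraries. RPE identity was partial, with RPE65 at 4 reads or fewer in every library, and TYR, the melanin enzyme tyrosinase, at 350 to 578 normalised counts in GFP. Of 12 RPE markers tested, 10, 7, 4 and 11 were lower than GFP in the Oct4, Sox2, Klf4 and OSK lines, and 1 was higher, in Klf4. Of all 18828 features tested, 3238, 3744, 3008 and 3759 were lower in these lines. The summed level of the 16 RPE markers was 33905 to 38244 in GFP, 18429 to 19031 in Oct4 and 21442 to 22130 in Sox2. It was 25982 to 29408 in Klf4 and 15939 to 16209 in OSK. Most of it was KRT8 and KRT18, at means of 15930 and 5307 in GFP and 14283 and 5014.5 in Sox2. Median log2 changes of the 12 tested markers were -1.07, -1.65, -0.31 and -1.44 in the Oct4, Sox2, Klf4 and OSK lines. Sox2 thus had the lowest median though not the lowest sum. In bulk RNA, fewer cells of a type and less RNA per cell cannot be told apart, and the part of the marker changes in the S100 values was not tested.

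Values are normalised counts, that is, reads divided by a single factor per library. Levels between genes were compared per kilobase of exon. On that scale S100A6 was the highest S100 gene in every line (3832 ± 397 in GFP, SD, n = 3), followed in every line by S100A10 (635 ± 38.0 in GFP), S100A11 (354 ± 52.6) and S100A16 (250 ± 46.9). S100A4 (42.9 ± 19.1), S100A2 (34.0 ± 5.94), S100A3 (21.9 ± 9.50) and S100A13 (13.9 ± 1.41) formed a lower tier in GFP. S100A14 (2.85 ± 3.59) and S100P (2.32 ± 1.55) were near the limit of detection.

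**Figure D1:**
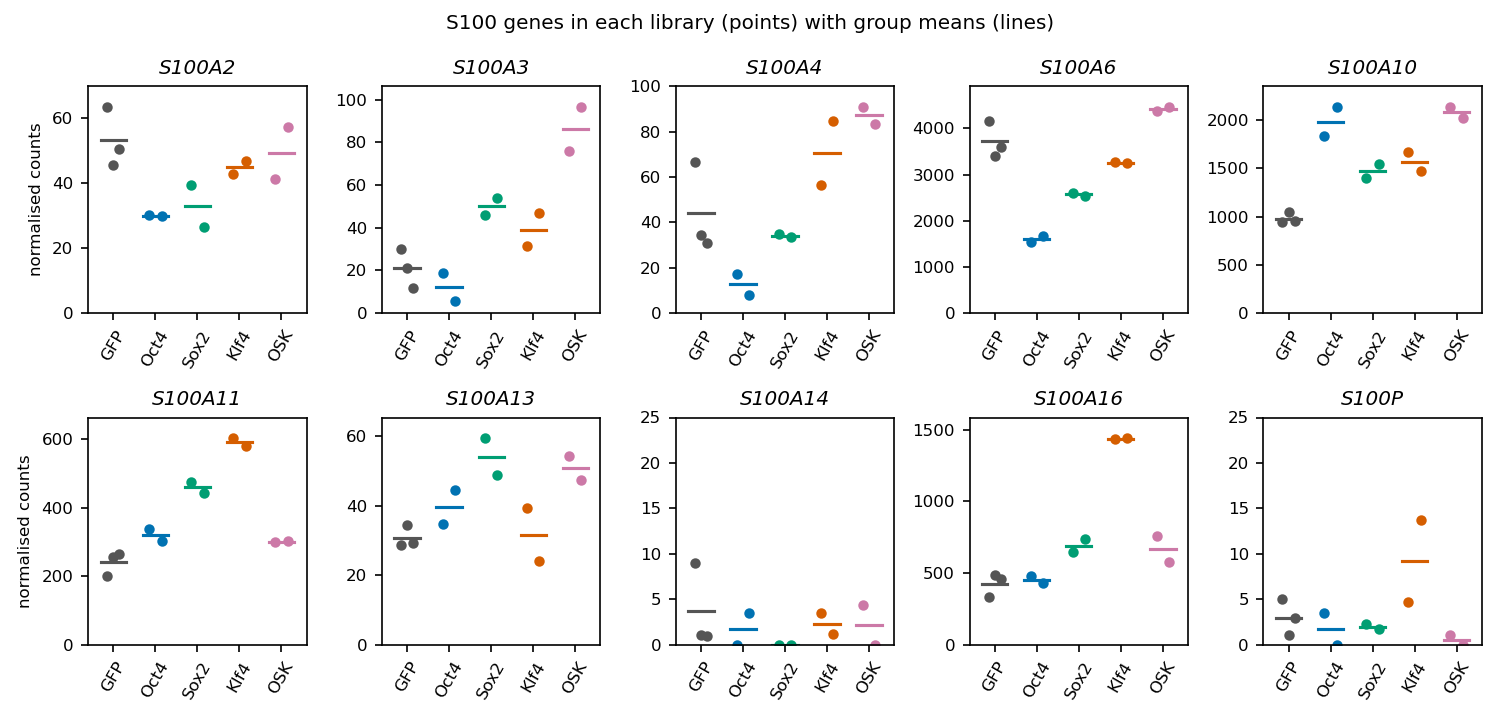
Normalised counts of the 10 S100 genes (vertical axes from 0, each panel with its own range) in every library, grouped by line; points are libraries and lines are group means. The S100A16 points of the Klf4 line (1432 and 1441) lie far above those of every other line, and the S100A6 points of the Oct4 line (1546 and 1668) far below.

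Of the 10 genes, 8 reached 10 normalised counts in 2 or more libraries and were tested with limma on log2(value + 1), with Benjamini-Hochberg adjustment over 18828 features and a threshold of 0.05. S100A14 and S100P did not reach that level. In the Oct4 line 5 of the 8 differed from GFP, 2 higher (S100A10, S100A11) and 3 lower (S100A2, S100A4, S100A6), where 37.3% of all features tested did (20.1% higher, 17.2% lower). In the Sox2 line 6 of the 8 differed, 5 higher (S100A3, S100A10, S100A11, S100A13, S100A16) and 1 lower (S100A6), against 41.6% of all (21.7% higher, 19.9% lower). In the Klf4 line 3 differed, all higher (S100A10, S100A11, S100A16), against 33.5% of all (17.6% higher). Without GFP replicate 1 the Klf4 count was 5. In the OSK line 6 were higher (S100A3, S100A4, S100A6, S100A10, S100A11, S100A16) and none lower, against 39.7% of all (19.7% higher, 20.0% lower). The OSK count fell to 2 without OSK replicate 1, 3 without OSK replicate 2, and 4 without GFP replicate 2, without GFP replicate 3, or without GFP replicate 1 and OSK replicate 1 together. The Oct4 count fell to 3 where the model held the Oct4 and GFP libraries alone. The Sox2 count fell to 4 without GFP replicate 3. Median log2 changes of the 8 were -0.34, 0.65, 0.70 and 0.68 in the Oct4, Sox2, Klf4 and OSK lines, beside -0.02, -0.02, -0.02 and -0.01 over all features. The 4 comparisons share the GFP libraries. S100A10 and S100A11 were higher than GFP in all 4 lines, as were 3.36% of all features tested. Each of the 8 differed from GFP in at least 1 line, and so did 68.3% of all features.

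**Figure D2:**
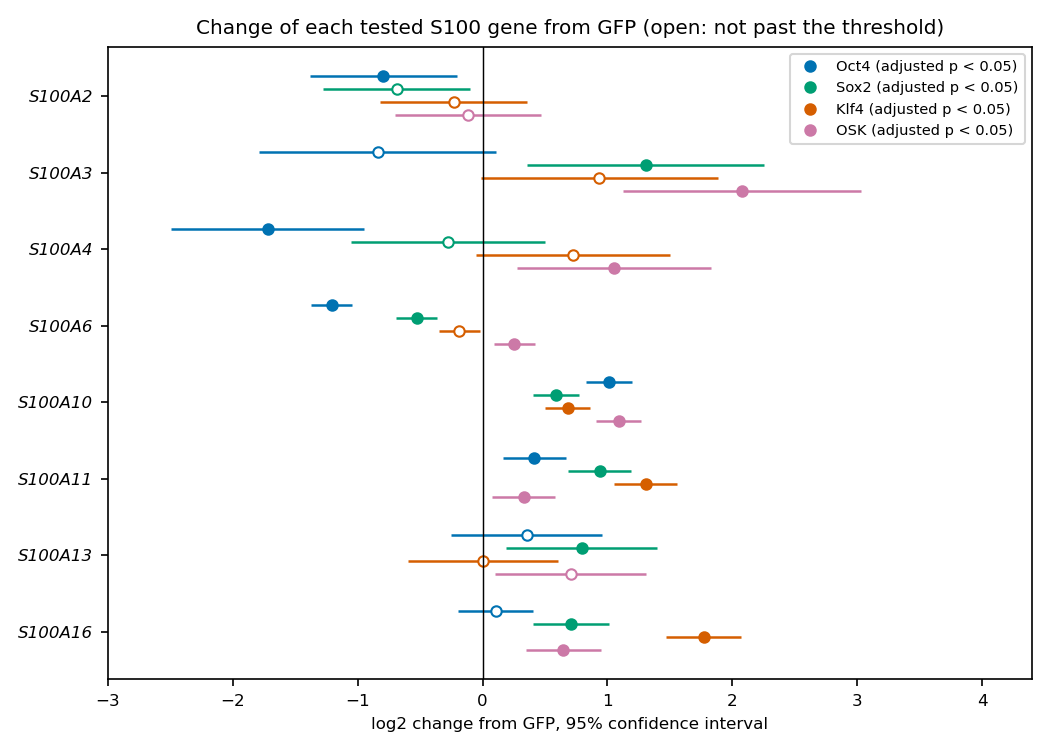
Log2 change from GFP (horizontal axis) of the 8 tested S100 genes in the Oct4, Sox2, Klf4 and OSK lines, with 95% confidence intervals from limma as bars; filled points passed an adjusted p of 0.05 and open points did not. S100A10 and S100A11 are filled on the right in all 4 lines, while S100A6 runs from -1.21 in Oct4 to 0.25 in OSK.

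S100A6 (calcyclin, which binds the ubiquitin ligase adaptor CACYBP and several annexins) stepped from line to line. It was at 4153, 3411 and 3598 normalised counts in GFP, 1546 and 1668 in Oct4, 2612 and 2529 in Sox2, 3266 and 3254 in Klf4, and 4375 and 4473 in OSK. The Oct4 and Sox2 libraries lay below every GFP library and the OSK libraries above every one. Against GFP it was 2.31-fold lower in Oct4 (log2 change -1.21 ± 0.08, SE; limma adjusted p = 5.84e-09) and 1.44-fold lower in Sox2 (-0.53 ± 0.08, adjusted p = 4.02e-05). The Klf4 difference did not pass the test (-0.19 ± 0.08, adjusted p = 0.0792, 95% interval -0.35 to -0.02), although it did without GFP replicate 2 (adjusted p = 0.0278). The 1.19-fold rise in OSK was small (0.25 ± 0.08, adjusted p = 0.0153). That rise missed the threshold without GFP replicate 2 (adjusted p = 0.0673), GFP replicate 3 (0.0512), OSK replicate 1 (0.0656) or OSK replicate 2 (0.106), and with only GFP and OSK in the fit (0.0557).

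From low to high, the lines ran Oct4, Sox2, Klf4, GFP and OSK for S100A6. Neighbours in that order differed, except Klf4 and GFP. Sox2 was above Oct4 by 0.68 ± 0.08 on the log2 scale (adjusted p = 1.13e-05) and Klf4 above Sox2 by 0.34 ± 0.08 (adjusted p = 0.00388). OSK exceeded Oct4 by 1.46 ± 0.08 (adjusted p = 1.72e-09).

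S100A4 (metastasin, which binds the heavy chain of non-muscle myosin MYH9) is a neighbour of S100A6 and had a wider range at a far lower level. Its normalised counts were 66.5, 34.4 and 31.1 in GFP, 17.4 and 8.01 in Oct4, 34.8 and 33.4 in Sox2, 56.7 and 84.6 in Klf4, and 91.1 and 83.6 in OSK. GFP replicate 1 lay between the Klf4 libraries and well above the other GFP libraries. The fall in Oct4 was 3.30-fold (log2 change -1.72 ± 0.36, SE; limma adjusted p = 0.00143) and no library of Oct4 overlapped GFP. The rise in OSK was 2.08-fold (1.05 ± 0.36, adjusted p = 0.0306), with every OSK library above every GFP library. It missed the threshold without GFP replicate 2 (adjusted p = 0.0900), GFP replicate 3 (0.110), OSK replicate 1 (0.156) or OSK replicate 2 (0.112), and with no filter (0.0710). In Klf4 the change was 0.73 ± 0.36 (adjusted p = 0.146, 95% interval -0.05 to 1.501), and it passed without GFP replicate 1 (adjusted p = 0.0232). In Sox2 the change was -0.28 ± 0.36 (adjusted p = 0.587).

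S100A3 (a zinc-binding member known from the hair cuticle) was at 29.8, 21.2 and 11.7 normalised counts in GFP, 18.6 and 5.72 in Oct4, 46.0 and 53.9 in Sox2, 31.2 and 46.9 in Klf4, and 75.9 and 96.8 in OSK. The OSK libraries were above all others, and Oct4 overlapped GFP. OSK exceeded GFP 4.22-fold (log2 change 2.08 ± 0.45, SE; limma adjusted p = 0.00141). Sox2 exceeded GFP 2.47-fold (1.31 ± 0.45, adjusted p = 0.0275), a call that was lost without GFP replicate 3 (adjusted p = 0.109), Sox2 replicate 1 (0.0886) or Sox2 replicate 2 (0.150), and with no filter (0.0687). Klf4 differed from GFP by 0.93 ± 0.45 (adjusted p = 0.125), and by enough to pass without GFP replicate 1 (0.0393). In Oct4 the change was -0.84 ± 0.45 (adjusted p = 0.159), and it passed without Oct4 replicate 1 (0.0215). These values rest on 5 to 88 reads per library.

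S100A2 (a mainly nuclear member that binds p53) was at 63.6, 45.5 and 50.6 normalised counts in GFP, 30.2 and 29.8 in Oct4, 39.3 and 26.5 in Sox2, 42.8 and 46.9 in Klf4, and 41.2 and 57.2 in OSK. Oct4 and Sox2 lay below every GFP library, and OSK overlapped GFP. The Oct4 line was 1.73-fold lower than GFP (log2 change -0.79 ± 0.28, SE; limma adjusted p = 0.0335), a borderline call kept in 13 of 22 alternative fits. It was lost without GFP replicate 1 (0.0951), GFP replicate 3 (0.0600), Oct4 replicate 1 (0.114) or Oct4 replicate 2 (0.123), with no filter (0.0537), with DESeq2 (0.104) and with only the compared groups (0.0515). In Sox2 the change was -0.69 ± 0.28 (adjusted p = 0.0574, and 0.0444 without Sox2 replicate 1). In Klf4 it was -0.23 ± 0.28 (95% interval -0.82 to 0.36) and in OSK -0.12 ± 0.28 (-0.70 to 0.47).

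S100A10 (p11, the partner of annexin A2 in a complex that binds plasminogen activator and AHNAK) was higher than GFP in every other line. Its normalised counts were 940, 1047 and 952 in GFP, 1835 and 2136 in Oct4, 1401 and 1550 in Sox2, 1674 and 1471 in Klf4, and 2142 and 2025 in OSK. No library of the factor lines overlapped GFP. The rise was 2.02-fold in Oct4 (log2 change 1.02 ± 0.09, SE; limma adjusted p = 1.4e-07), 1.51-fold in Sox2 (0.59 ± 0.09, adjusted p = 3.88e-05), 1.603-fold in Klf4 (0.68 ± 0.09, adjusted p = 1.43e-05) and 2.13-fold in OSK (1.09 ± 0.09, adjusted p = 5.5e-08). Each of the 4 calls was kept in all 23 alternative fits. Oct4 and OSK did not differ beyond their spread (OSK minus Oct4 0.07, 95% interval -0.13 to 0.27), nor did Sox2 and Klf4 (Klf4 minus Sox2 0.09, -0.11 to 0.29). Oct4 was above Klf4 (Klf4 minus Oct4 -0.34 ± 0.09, adjusted p = 0.00915), a call lost without Oct4 replicate 2 (0.132) or Klf4 replicate 2 (0.114) and with only these lines in the fit (0.0520).

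S100A11 (calgizzarin, which binds annexin A1) was at 199.6, 257 and 265 normalised counts in GFP, 337 and 301 in Oct4, 475 and 443 in Sox2, 603 and 580 in Klf4, and 299 and 301 in OSK. Every library of the 4 factor lines was above every GFP library, and the Klf4 and Sox2 libraries were the highest. The change was 2.47-fold in Klf4 (log2 change 1.31 ± 0.12, SE; limma adjusted p = 4.26e-07) and 1.92-fold in Sox2 (0.94 ± 0.12, adjusted p = 8.81e-06). Oct4 (1.33-fold, 0.41 ± 0.12, adjusted p = 0.012) and OSK (1.26-fold, 0.33 ± 0.12, adjusted p = 0.0376) rose less. For OSK the threshold was missed in 8 of 23 alternative fits, not all of which are named here. The Oct4 call was lost without Oct4 replicate 1 (adjusted p = 0.123) and with only the compared groups (0.0552). The OSK call was lost without GFP replicate 1 (0.135), OSK replicate 1 (0.132), OSK replicate 2 (0.147) or GFP replicate 1 and OSK replicate 1 together (0.231), with no filter (0.107), with DESeq2 (0.105) and with only the compared groups (0.100).

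S100A16 (a widely expressed member with a single working EF hand) had the largest rise of the 8 in the Klf4 line. It was at 335, 484 and 459 normalised counts in GFP, 480 and 427 in Oct4, 643 and 735 in Sox2, 1432 and 1441 in Klf4, and 754 and 575 in OSK. Oct4 overlapped GFP, Sox2 overlapped OSK, and Klf4 stood clear of all. Klf4 exceeded GFP 3.41-fold (log2 change 1.77 ± 0.14, SE; limma adjusted p = 1.04e-07), Sox2 1.63-fold (0.71 ± 0.14, adjusted p = 0.000734) and OSK 1.57-fold (0.65 ± 0.14, adjusted p = 0.00164). The OSK call was lost without OSK replicate 1 (0.0606), also when GFP replicate 1 was left out too (0.0708). In Oct4 the change was 0.11 ± 0.14 (95% interval -0.20 to 0.41).

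The Klf4 line was set against the other lines for the same genes. S100A16 was higher in Klf4 than in Sox2 by a log2 difference of 1.06 ± 0.16 (SE; limma adjusted p = 3.93e-05), and it exceeded Oct4 by 1.66 ± 0.16 (adjusted p = 2.82e-07). It was lower in OSK than in Klf4 by 1.12 on that scale (log2 difference -1.12 ± 0.16, adjusted p = 5.92e-05). KLF4 RNA was at 24202 and 24470 normalised counts in OSK and at 22142 and 24205 in the Klf4 line. KLF4 protein was not measured, and the part of the KLF4 level in the S100A16 difference was not tested. S100A11 was also lower in OSK than in Klf4 (-0.98 ± 0.13, adjusted p = 4.18e-05) and in Sox2 (-0.61 ± 0.13, adjusted p = 0.00135).

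S100A13 (which carries FGF1 out of cells by a route without a signal peptide) was at 28.8, 34.4 and 29.2 normalised counts in GFP, 34.8 and 44.6 in Oct4, 59.5 and 48.8 in Sox2, 39.3 and 24.0 in Klf4, and 54.2 and 47.3 in OSK. All factor lines except Klf4 lay above every GFP library. Sox2 exceeded GFP 1.73-fold (log2 change 0.79 ± 0.28, SE; limma adjusted p = 0.0348). That call was kept in 14 of 22 alternative fits and lost without GFP replicate 1 (0.0632), GFP replicate 3 (0.0770), Sox2 replicate 1 (0.215) or Sox2 replicate 2 (0.0695), with no filter (0.0548) and with DESeq2 (0.0979). In OSK it was 0.70 ± 0.28 (adjusted p = 0.0610, and 0.0492 and 0.0449 without Klf4 replicate 1 or 2), in Oct4 0.35 ± 0.28 (adjusted p = 0.365) and in Klf4 0.00 ± 0.28 (95% interval -0.60 to 0.61). In GENCODE, 24.2% of its exon bases lie also in the non-coding gene AL162258.1 on the same strand and 10.6% in S100A1 on the opposite strand. The use of strand in counting is not given in the sources used here, so reads of these genes cannot be told apart there.

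S100A14 (an epithelial member) and S100P (a member first found in placenta, which binds ezrin) were too low to test. S100A14 was at 8.94, 1.01 and 0.97 normalised counts in GFP, 0 and 3.43 in Oct4, 0 and 0 in Sox2, 3.47 and 1.14 in Klf4, and 4.34 and 0 in OSK. S100P was at 4.97, 1.01 and 2.92 in GFP, 3.48 and 0 in Oct4, 2.24 and 1.71 in Sox2, 4.63 and 13.7 in Klf4, and 1.08 and 0 in OSK. With no filter neither passed in any of the 11 comparisons, and differences were not detectable at this depth (at most 12 reads in a library).

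Lines were also compared with each other. OSK had 4 of the 8 genes higher than Oct4 (S100A3, S100A4, S100A6, S100A16) and none lower, where 40.3% of all features differed (18.4% higher, 21.9% lower). Against Sox2, OSK had 3 higher (S100A4, S100A6, S100A10) and 1 lower (S100A11), where 40.5% differed (20.0% higher, 20.5% lower). Against Klf4, OSK had 2 higher (S100A6, S100A10) and 2 lower (S100A11, S100A16), where 21.5% differed (9.56% higher, 11.9% lower). Sox2 differed from Oct4 in 6 of the 8, 5 higher and 1 lower, where 33.4% of all features differed (15.4% higher, 18.0% lower). Klf4 also differed from Oct4 in 6, 5 higher and 1 lower, where 41.7% differed (20.0% higher, 21.8% lower). In both cases S100A10 was lower and S100A3, S100A4, S100A6, S100A11 and S100A16 were higher. The Sox2 count against Oct4 fell to 2 without Oct4 replicate 2. Klf4 differed from Sox2 in 3, all higher (S100A6, S100A11, S100A16), where 40.8% differed (20.7% higher, 20.1% lower), and in 5 without GFP replicate 1.

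OSK was then set against the 3 single-factor lines combined. The sum of the 3 log2 changes from GFP was used as the change that factors acting independently on a log scale would give. That holds only if the lines differ from GFP by their factors alone. The OSK change was tested against this sum. Anything else that sets all factor lines apart from GFP, such as mC, enters the sum for each of the 3 lines. It enters the OSK change for a single line, and its part was not tested. Of the 8 genes 6 departed from the sum, where 35.9% of all features did (15.6% above, 20.3% below). Above the sum were 3 (S100A2, S100A4, S100A6) and below it 3 (S100A10, S100A11, S100A16). For S100A6 the sum was -1.92 and the OSK change 0.25, a difference of 2.18 ± 0.15 (SE; limma adjusted p = 3.38e-08). For S100A11 the sum was 2.66 and the OSK change 0.33 (difference -2.33 ± 0.24, adjusted p = 1.56e-06), and for S100A16 they were 2.58 and 0.65 (-1.94 ± 0.28, adjusted p = 5.95e-05). The S100A10 sum was 2.29 and its OSK change 1.09 (-1.20 ± 0.17, adjusted p = 5.08e-05).

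For S100A4 the sum was -1.27 and the OSK change 1.05 (difference 2.33 ± 0.73, limma adjusted p = 0.0205). That call was lost without GFP replicate 1 (0.0699), Oct4 replicate 2 (0.0605), Klf4 replicate 1 (0.0629), OSK replicate 1 (0.0544), or GFP replicate 1 and OSK replicate 1 together (0.150). For S100A2 they were -1.71 and -0.12 (1.597 ± 0.55, adjusted p = 0.0339), a call kept in 9 of 21 alternative fits. It was lost without GFP replicate 1 or 3, either Oct4 or Klf4 replicate, Sox2 replicate 2 or OSK replicate 2 (adjusted p from 0.0504 to 0.0986). S100A3 (0.68 ± 0.89, adjusted p = 0.598) and S100A13 (-0.44 ± 0.57, adjusted p = 0.586) did not depart beyond their spread. The factor RNAs differed between OSK and the single-factor lines. POU5F1 was at 19020 and 19542 normalised counts in OSK, against 66823 and 67326 in the Oct4 line. SOX2 was at 17582 and 17764, against 29106 and 29141 in the Sox2 line. The part of these levels in the departures was not tested.

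**Figure D3:**
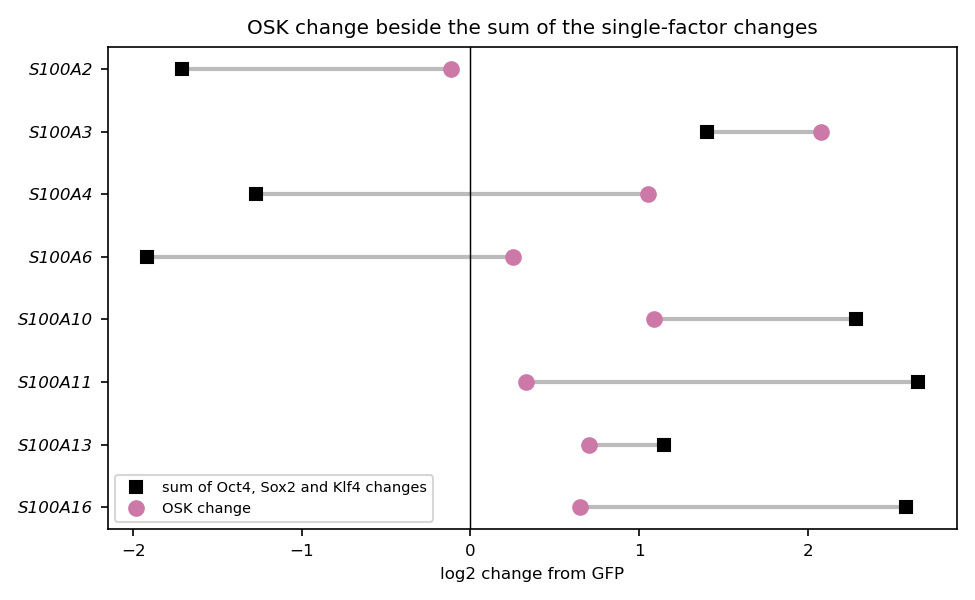
Log2 change from GFP (horizontal axis) of the 8 tested S100 genes, with the sum of the Oct4, Sox2 and Klf4 changes as squares and the OSK change as circles. S100A6 and S100A4 have a sum below 0 and an OSK change above it, and the S100A11 and S100A16 circles lie near 0.33 and 0.65 with their squares beyond 2.5.

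Over the 11 libraries the genes fell into patterns, described by Pearson correlations of log2(value + 1) without a test because libraries share lines and scaling. The most alike pair was S100A11 and S100A16 (r = 0.89), which are 1.57 Mb apart. S100A4 and S100A6 (0.869), S100A3 and S100A4 (0.824) and S100A2 and S100A6 (0.817) followed. The 6 pairs among the neighbours S100A2, S100A3, S100A4 and S100A6 had a median r of 0.742 (0.265 to 0.869), and the other 22 pairs 0.131 (-0.493 to 0.89). The ranges overlapped, since S100A2 and S100A3 were at 0.265 and S100A10 and S100A13 at 0.57. S100A2 and S100A10 were the least alike (-0.493).

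**Figure D4:**
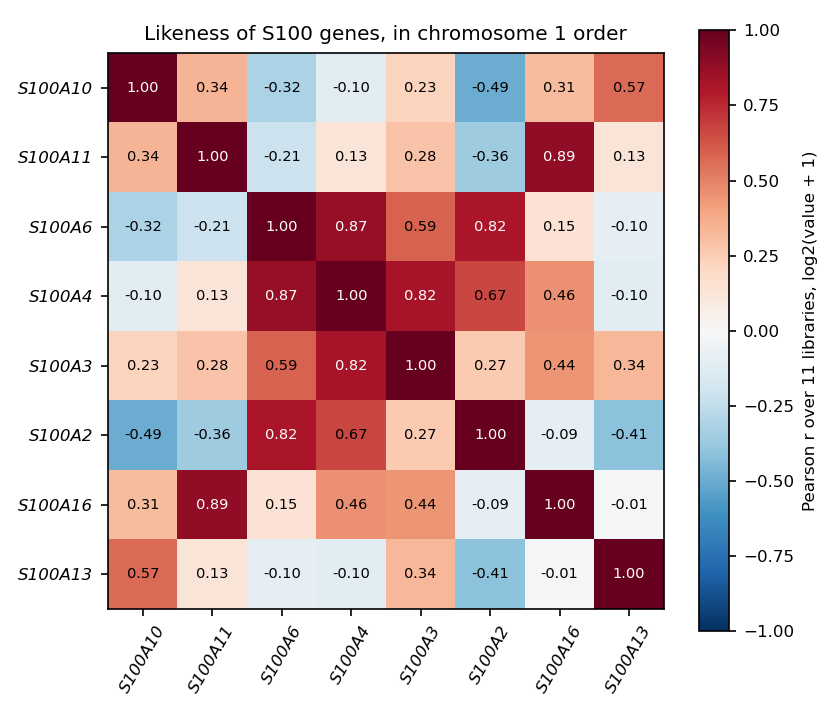
Pearson r of log2(value + 1) over 11 libraries for each pair of the 8 tested S100 genes, on a colour scale from -1 (blue) to 1 (red), with genes in chromosome 1 order. S100A4 and S100A6 (0.87) and S100A11 and S100A16 (0.89) are the deepest red pairs, while S100A2 and S100A3 (0.27) are paler than S100A10 and S100A13 (0.57).

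Group means spanned 2.92 on the log2 scale for S100A3, 2.78 for S100A4, 1.77 for S100A16, 1.46 for S100A6, 1.31 for S100A11 and 1.09 for S100A10. Over the 5 group means, the features most like S100A3 were PLSCR4 (r = 0.9989), CCDC150 (0.9982) and C8G (0.9979), and those most like S100A4 were VPS16 (0.9977), RPS29P16 (0.9942) and ASL (0.9937). With 5 points among 18828 features, such values describe shape only.

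The proteins that S100 proteins bind were examined as gene lists. Of 13 annexins 11 were tested, and 1, 4, 8 and 4 were higher than GFP in the Oct4, Sox2, Klf4 and OSK lines while 4, 4, 2 and 3 were lower. Over all features, 20.1%, 21.7%, 17.6% and 19.7% were higher in these lines, and 37.3%, 41.6%, 33.5% and 39.7% differed in either direction. ANXA2, the partner of S100A10, was at 14394 to 16778 normalised counts in GFP and at 54901 and 57423 in Sox2, where it rose (log2 change 1.83 ± 0.08, SE; limma adjusted p = 3.4e-11). In Oct4, where S100A10 doubled, ANXA2 was at 16522 and 16741 (0.08 ± 0.08, adjusted p = 0.465). ANXA2 in Klf4 (0.30 ± 0.08, adjusted p = 0.00656) and OSK (0.36 ± 0.08, adjusted p = 0.00145) rose slightly. ANXA1, the partner of S100A11, rose in Sox2 (0.78 ± 0.11), Klf4 (0.82 ± 0.11) and OSK (1.15 ± 0.11) and fell in Oct4 (-0.37 ± 0.11), with adjusted p from 6.05e-07 to 0.017. ANXA8 fell in Sox2 (-2.47 ± 0.19, adjusted p = 2.67e-08) and rose in Klf4 (2.02 ± 0.19, adjusted p = 4.61e-07), but its near-identical copy ANXA8L1 (-2.28 ± 0.25 and 1.85 ± 0.25) makes the split of reads uncertain.

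Of 18 other binding partners 14 were tested, and 6, 9, 6 and 8 were higher in the Oct4, Sox2, Klf4 and OSK lines and 3, 4, 2 and 3 lower, beside the 37.3%, 41.6%, 33.5% and 39.7% of all features that differed. FGF1, the cargo of S100A13, was at 0.97 to 10.9 normalised counts in GFP and at 97.3 and 113.8 in Oct4, 62.8 and 64.2 in Sox2 and 35.2 and 54.2 in OSK. It rose in these 3 lines, most in Oct4 (log2 change 4.68 ± 0.58, SE; limma adjusted p = 8.86e-06). PLAT, tissue plasminogen activator, was at 22.4 to 45.7 in GFP and 389 and 586 in Klf4 (3.77 ± 0.25, adjusted p = 1.18e-08). PPFIBP1 (liprin beta, a binder of S100A4) was at 207 to 261 in GFP and 1792 and 2185 in Oct4 (3.04 ± 0.11, adjusted p = 8.94e-12). MYH9, the myosin partner of S100A4, was at 55858 to 95627 in GFP, with its lowest value in GFP replicate 1. It fell to 31363 and 32566 in OSK (-1.29 ± 0.16, limma adjusted p = 1.08e-05) and to 40253 and 42414 in Klf4 (-0.92 ± 0.16, adjusted p = 0.000401). In Sox2 it rose to 127108 and 137122 (0.75 ± 0.16, adjusted p = 0.00156). The sizes of these changes without GFP replicate 1 are not given. AHNAK, the scaffold that S100A10 and annexin A2 bind, rose in Klf4 (0.91 ± 0.08, adjusted p = 3.06e-07) and fell in Sox2 (-0.93 ± 0.08, adjusted p = 1.24e-07).

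All 4 listed S100 receptors were tested, and 1, 3, 2 and 3 were higher in the Oct4, Sox2, Klf4 and OSK lines and 1, 1, 0 and 0 lower, beside the same shares of all features. With 4 genes such counts are a description. TLR4, a receptor of S100A8 and S100A9, was at 21.4 to 41.7 normalised counts in GFP and at 3476 and 3967 in Sox2 (log2 change 6.87 ± 0.24, SE; limma adjusted p = 5.2e-12). In OSK, which carries Sox2 too, TLR4 was at 51.0 and 62.7 (0.86 ± 0.24, adjusted p = 0.00983). AGER (RAGE) was at 29.2 to 39.7 in GFP and 160.8 and 168.0 in Klf4 (2.18 ± 0.22, adjusted p = 1.58e-06). CD36 was at 1.94 to 15.9 in GFP and 52.7 and 61.7 in Sox2 (3.45 ± 0.86, adjusted p = 0.0041). BSG (basigin) was lower in Oct4 (-0.69 ± 0.09) and Sox2 (-0.81 ± 0.09) and higher in Klf4 (0.49 ± 0.09) and OSK (0.30 ± 0.09), with adjusted p from 2.81e-06 to 0.0176.

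Among the fused-type genes, long epidermal proteins that begin with an S100 domain, 3 of 7 were tested. FLG (filaggrin) was at 20.4 to 56.6 normalised counts in GFP, 167 and 192 in Klf4 and 1053 and 1312 in OSK (OSK log2 change 5.29 ± 0.32, SE; limma adjusted p = 2.43e-09). CRNN (cornulin) was at 0 to 4.97 in GFP, 63.6 and 67.4 in Klf4 and 111.1 and 139.8 in OSK (6.11 ± 0.77, adjusted p = 1.01e-05). Of the keratinocyte keratins, KRT5 had at most 5 reads in every library, while KRT14 was at 0 to 12.9 in GFP, 111 and 147 in Klf4 and 2.20 and 3.25 in OSK. Of the 7 keratinocyte markers 3 were tested. TP63, the basal keratinocyte factor, was at 22.8 to 34.4 in GFP and fell in the Oct4, Sox2, Klf4 and OSK lines (log2 changes -2.26, -1.62, -2.01 and -2.49, limma adjusted p from 0.0017 to 0.0263), KRT14 rose in Klf4 (5.74 ± 1.05, adjusted p = 0.000503), and KRT10 fell in OSK (-0.37 ± 0.10, adjusted p = 0.0102). The summed level of the 7, most of it KRT10 (504 to 554 in GFP), was 563 to 592 in GFP, 585 to 636 in Klf4 and 381 to 467 in OSK, and the part of these markers in the FLG and CRNN values was not tested. Of the other 11 S100 genes only S100A1 was tested, and it passed in none of the 11 comparisons.

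**Figure D5:**
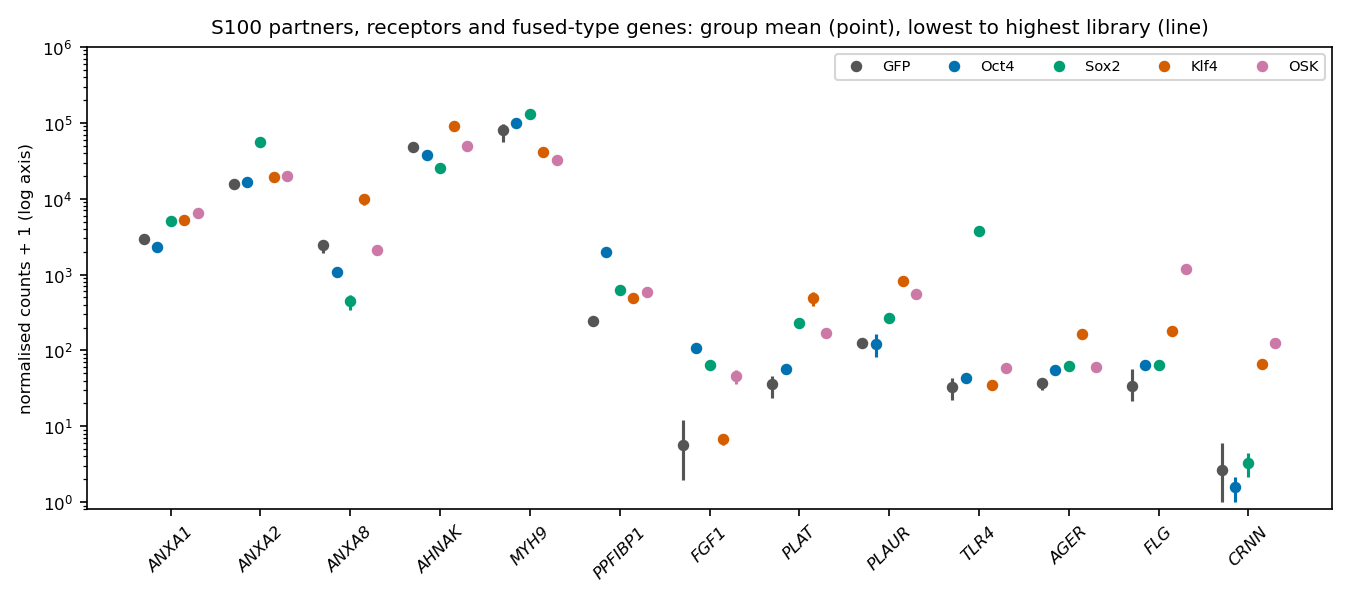
Normalised counts plus 1 (vertical log axis) of S100 partners, receptors and fused-type genes in the 5 lines; points are group means and bars run from the lowest to the highest library. TLR4 in Sox2 (3476 and 3967) and FLG in OSK (1053 and 1312) stand far above the same genes in GFP.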

How the data were processed

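Polyadenylated RNA of 11 ARPE-19 libraries was captured on oligo(dT) beads and made into libraries with a NEBNext Ultra II RNA kit, per the labels' protocols. Reads were processed with STAR 2.7.1a and featureCounts 1.6.2, and GRCh38 is among the builds named, per the submitters' processing notes. The annotation, use of strand and normalization tool are not given in the sources used here. The deposited values are a signal that the authors made from gene counts divided by 1 factor per library, as read from the values: every value of 200 or less was a multiple of 1 read within 0.0061. Groups were taken from sample titles. The 18828 features that reached 10 in 2 or more libraries were fitted with limma 3.58.1 (R 4.3.3, eBayes with trend) on log2(value + 1), with 1 mean per group over all 11 libraries, 6 residual and 9.21 prior degrees of freedom, and Benjamini-Hochberg adjustment at 0.05. The scale understates changes of low genes. Standard errors and intervals come from this fit. The procedure was also run on simulated counts, with the same relative spread for every gene and no library that stood apart. That setting differs from these data, so it is no check of the low S100 genes.

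Alternatives were other pseudocounts, filters and scalings, edgeR 4.0.16 and DESeq2 1.42.0 on recovered reads, only the compared groups, the replicate number as a block, and each replicate left out. All 10 S100 genes are named. Of the other lists (annexins, binding partners, receptors, fused-type genes, other S100 genes) at least the 3 genes with the largest called change were named. The S100 genes and all lists were chosen with earlier results of these data known, so their counts are no independent support. Markers of other cell types were also measured. The 6 leukocyte markers summed to 52.8 to 297 normalised counts: PTPRC was at most 2.24, whereas CSF1R was at 95.3 to 197 in GFP and up to 288 in Klf4, and ITGAM was at 52.6 in GFP replicate 1 and at most 11.9 in any other library. The 7 photoreceptor markers summed to 173 to 350. The 8 fibroblast markers summed to 5152 to 16440, most of it PDGFRB and COL1A1 (means of 11258 and 3856 in GFP). Of 5 tested, 1, 2, 3 and 2 were lower in the Oct4, Sox2, Klf4 and OSK lines. Over all features 37.3%, 41.6%, 33.5% and 39.7% differed in these lines. The only marker of the 5 called higher was COL1A1 in Sox2 (log2 change 1.02), and COL1A1 was lower in Klf4 (-1.72) and OSK (-2.50). Protein sequences were not used here.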

Additional observations from a re-analysis of the deposited data

How the results depend on the processing

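Of the 53 calls made for S100 genes over the 11 comparisons, 33 passed the threshold in every alternative run and 20 missed it in at least 1; of the 35 results not called, 10 passed in at least 1. None of the 53 changed sign. Smaller moves of the counts of S100 genes called are not all listed. Sox2 against GFP gave 4 in place of 6 without GFP replicate 3, and OSK against the sum gave 4 in place of 6 without GFP replicate 1. In proportion, the counts moved most in the following cases. Oct4 against GFP gave 3 in place of 5 with a mean of at least 50 (4 tested) and also with only the compared groups, and OSK against Oct4 gave 2 with a mean of at least 50. Leaving out 1 replicate at a time, the counts ran from 3 to 5 for Klf4 against GFP (5 without GFP replicate 1), 2 to 7 for OSK against GFP (2 and 3 without OSK replicate 1 and 2), 2 to 6 for Sox2 against Oct4 (2 without Oct4 replicate 2) and 2 to 5 for Klf4 against Sox2 (5 without GFP replicate 1). Over all features, OSK against Klf4 ran from 2519 to 4905 around 4049 (2574 without Klf4 replicate 1, 2519 without OSK replicate 2). Fewer samples enter these fits; the cause was otherwise not tested. Replicates: whether numbers pair the libraries cannot be told. Same-number deviations correlated at 0.435 and 0.31 for GFP and OSK, and between -0.069 and 0.042 for the other pairs of groups. In groups of 2 libraries the deviations mirror each other, so both numbers give the same value. With the replicate block 4, 4, 3 and 4 S100 genes were called in the Oct4, Sox2, Klf4 and OSK comparisons with GFP (5, 6, 3 and 6 without it). Of all features 6072, 7051, 5322 and 6469 were called with it (7018, 7824, 6315 and 7471 without it). The 6 S100 calls not made with the block were S100A2 in Oct4, S100A3 and S100A13 in Sox2, S100A4 and S100A6 in OSK, and S100A2 in OSK against the sum.

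Signs changed only among results not called, with values between -0.28 and 0.68 when no library was left out. With 1 replicate left out, log2 changes ran from -0.0579 to 0.207 for S100A16 in Oct4 against GFP, -0.479 to 0.0572 for S100A4 in Sox2, -0.342 to 0.348 for S100A13 in Klf4 and -0.348 to 0.116 for S100A2 in OSK. They ran from -0.0363 to 0.183 for S100A10 in OSK against Oct4, -0.228 to 0.0519 for S100A13 and -0.256 to 0.1345 for S100A16 in OSK against Sox2, and -0.118 to 0.346 for S100A2 in OSK against Klf4. They ran from -0.1695 to 0.379 for S100A2 in Sox2 against Oct4, -0.0031 to 0.183 for S100A10 in Klf4 against Sox2 and -0.0947 to 1.45 for S100A3 in OSK against the sum. S100A13 in Klf4 was also at -0.0285 with upper quartile scaling and at -0.0326 with the replicate block. Without GFP replicate 1 and OSK replicate 1 together, S100A16 in Oct4 was at -0.0579, S100A4 in Sox2 at 0.0572, S100A13 in Klf4 at -0.0413 and S100A2 in OSK at 0.249. With no filter the median change of all features was -0.33 in Oct4, Sox2 and Klf4 and -0.24 in OSK. Low reads limit S100A2, S100A3, S100A4 and S100A13, and only the compared groups could not be used for OSK against the sum.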

Other observations

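Several low-level S100 genes had their highest read count in GFP replicate 1, the library with the most features detected. A read there is worth 0.993 normalised counts, so that reads and deposited values nearly coincide. S100A1 had 49 reads there and at most 19 in any other library, S100Z had 5 against 0, S100A7A 7 against 2, and S100A8 and S100A9 4 each against 1. S100A5 (7 and 7), S100A7L2 (1 and 1) and S100B (1 and 1) were no higher there, and S100G had 0 reads there and up to 3 elsewhere. S100A14 also had its highest value there (9 reads), so its GFP mean of 3.64 normalised counts rests on that library. S100P had its highest value in Klf4 replicate 2 (12 reads), with 4 reads in Klf4 replicate 1.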
